A study of Mus musculus with 27 samples.

Results

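The genes described here are those measured in primary mouse bone marrow-derived macrophages (BMDMs) after 1 h of interleukin-4 (IL-4), compared with the same cells left untreated. Of the 45070 genes of the table, the 11854 that reached 10 normalised read counts in 3 or more of the 6 libraries of this comparison were kept. The series held 27 samples in 9 groups of 3 replicates. BMDMs are macrophages grown in culture from bone marrow, here of wild type male C57/BL6 mice of 6 to 8 wk, and both groups were first kept for 1 h in DMSO, the vehicle of the kinase inhibitors that the study used elsewhere. The untreated group then received no stimulus, and the IL-4 group received IL-4 at 10 ng/ml for 1 h. Further groups used below were IL-4 at 0.5, 2 and 4 h and 1 h of lipopolysaccharide (LPS) at 10 ng/ml, an outer membrane molecule of bacteria that macrophages detect through TLR4. Chromatin-associated RNA was sequenced, a fraction enriched for transcripts still being made. The shares of unspliced and mature RNA in the values were not measured. The mitochondrial gene mt-Rnr2 was the highest gene in the untreated libraries, at 18051, 74181 and 73573 counts, so RNA from outside the nucleus was present. The cells are a culture model with DMSO in every group, and the sources used here do not say whether the replicates came from separate animals or cultures, so p-values measure the spread between these samples, which may be technical.

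IL-4 binds a receptor built on the IL-4 receptor alpha chain (Il4ra), paired with either the common gamma chain (Il2rg) or the IL-13 receptor chain Il13ra1. The JAK kinases bound to these chains phosphorylate the transcription factor STAT6, which enters the nucleus and binds DNA elements made of TTC and GAA set apart by a few free bases. In macrophages this signal is known for the programme called alternative activation, with arginine metabolism, lectin receptors and lipid use among its best known parts, and for switching on its own inhibitors of the SOCS family.

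Sequences are shown for the 6 protein-coding genes with the largest rises, because the motif that STAT6 is known to bind can be looked for there. Each run is the RefSeq promoter of GRCm38.p6, from 250 bases before to 50 bases after the annotated start, 5′ to 3′ on the strand of the gene. Capitals mark a match to TTCNNNNGAA, the spacing with 4 free bases preferred by STAT6, or to TTCNNNGAA, the spacing with 3 free bases used by other STAT factors. The windows were Pdcd1lg2 at chr19:29410669-29410968 on the plus strand, Socs1 at chr16:10785487-10785786 on the minus strand, Tarm1 at chr7:3502575-3502874 on the minus strand, Rasgrp1 at chr2:117342828-117343127 on the minus strand, Tmem26 at chr10:68723496-68723795 on the plus strand and Cish at chr9:107296409-107296708 on the plus strand.
Pdcd1lg2: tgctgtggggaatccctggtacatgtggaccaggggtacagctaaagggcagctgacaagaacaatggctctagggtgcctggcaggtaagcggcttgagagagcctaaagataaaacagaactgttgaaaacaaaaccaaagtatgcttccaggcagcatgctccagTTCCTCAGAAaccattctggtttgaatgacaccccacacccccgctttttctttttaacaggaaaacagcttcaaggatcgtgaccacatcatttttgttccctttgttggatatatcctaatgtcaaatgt
Socs1: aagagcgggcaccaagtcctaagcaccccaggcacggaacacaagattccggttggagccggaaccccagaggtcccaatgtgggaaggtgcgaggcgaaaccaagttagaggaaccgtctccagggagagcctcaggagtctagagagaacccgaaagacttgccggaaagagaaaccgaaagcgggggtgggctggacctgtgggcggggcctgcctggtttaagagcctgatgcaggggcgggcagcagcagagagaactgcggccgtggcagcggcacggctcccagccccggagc
Tarm1: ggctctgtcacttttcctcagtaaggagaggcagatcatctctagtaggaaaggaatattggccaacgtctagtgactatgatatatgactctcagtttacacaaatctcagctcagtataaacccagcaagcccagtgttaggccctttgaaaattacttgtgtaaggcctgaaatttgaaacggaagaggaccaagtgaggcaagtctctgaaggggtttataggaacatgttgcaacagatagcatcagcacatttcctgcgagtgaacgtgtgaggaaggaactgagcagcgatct
Rasgrp1: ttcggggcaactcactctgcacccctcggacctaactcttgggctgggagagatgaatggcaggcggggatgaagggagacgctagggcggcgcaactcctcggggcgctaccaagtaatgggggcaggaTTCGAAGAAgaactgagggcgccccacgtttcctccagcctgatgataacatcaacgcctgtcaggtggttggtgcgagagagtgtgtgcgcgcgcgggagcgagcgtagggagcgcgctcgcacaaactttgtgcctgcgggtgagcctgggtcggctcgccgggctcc
Tmem26: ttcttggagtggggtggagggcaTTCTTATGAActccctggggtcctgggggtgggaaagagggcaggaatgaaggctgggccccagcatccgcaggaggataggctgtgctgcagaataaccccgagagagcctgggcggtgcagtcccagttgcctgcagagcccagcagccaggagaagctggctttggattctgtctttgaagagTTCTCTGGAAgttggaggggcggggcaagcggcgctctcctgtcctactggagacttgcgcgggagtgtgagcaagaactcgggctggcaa
Cish: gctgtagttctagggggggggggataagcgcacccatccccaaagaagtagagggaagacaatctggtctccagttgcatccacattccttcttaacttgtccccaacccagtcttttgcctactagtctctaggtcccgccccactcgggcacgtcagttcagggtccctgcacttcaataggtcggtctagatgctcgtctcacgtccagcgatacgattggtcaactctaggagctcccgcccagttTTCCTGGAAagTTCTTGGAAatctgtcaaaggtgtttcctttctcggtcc

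The Pdcd1lg2 window held 1 match with 4 free bases, TTCCTCAGAA, whose first base lay 82 bases before the start. Tmem26 held 2 such matches, TTCTTATGAA and TTCTCTGGAA, 227 and 41 bases before the start. Rasgrp1 held TTCGAAGAA, with 3 free bases, 120 bases before the start. Cish held TTCCTGGAA at its annotated start and TTCTTGGAA 11 bases after it, both with 3 free bases. The windows of Socs1 and Tarm1 held neither spacing. Over all tested genes with a promoter in the table, 9343 of 11854, the 4-base spacing was present in 5.69%, and among all 32851 promoters of the table in 6.95%. It was present in 8.19% of the 1172 promoters of genes that were higher at 1 h, in 4.29% of the 1072 of genes that were lower, and in 12.7% of the 134 of genes that were higher by more than 2 on the log2 scale. The 3-base spacing was present in 6.91% of the promoters of higher genes, 6.44% of those of lower genes, 7.17% of all tested and 8.30% of all in the table. Both motifs read the same on either strand, a promoter could hold both and was then counted for each, and a match in these windows is a description of the letters and not evidence of binding.

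After 1 h of IL-4, 1498 genes had risen and 1367 had fallen relative to untreated cells at an adjusted p below 0.05, which is 12.6% and 11.5% of the 11854 genes tested. Rises were larger than falls. More than 1 on the log2 scale, a doubling, was reached by 622 genes that rose and 436 that fell, more than 2 by 180 and 46, and more than 3 by 56 and 4. The median size of a called change was 0.80 on the log2 scale, and the median change of all genes was −0.02. The 3 libraries of IL-4 1 h all lay above the 3 untreated libraries in 2214 genes, 18.7% of those tested, and all below them in 2115, 17.8%. Of the genes tested, 118 reached 10 normalised read counts in no untreated library and 92 in no IL-4 1 h library, and these passed the filter through 1 group alone. The list counts below include such genes, for example Socs1, Ccl7 and Batf3 among the rises and Fos and Btg2 among the falls. Of all genes, 4056 had an unadjusted p below 0.05. The balance between rises and falls depended on the scaling of the libraries. With the libraries set to equal totals 1202 genes were higher and 1924 lower, so that the share of higher genes among calls went from 52.3% to 38.5%, and the median of all genes moved by −0.10.

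**Figure D1:**
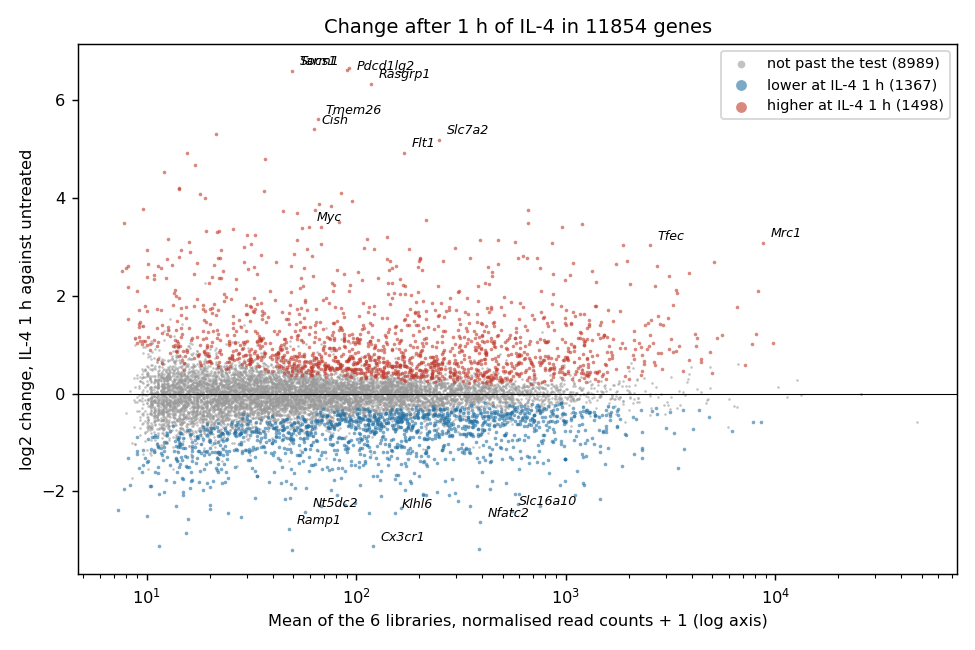
Change in normalised read counts after 1 h of IL-4 (log2 of value plus 1, y axis) against the mean level over the 6 libraries (x axis, log scale), 1 point per gene. The 1498 higher genes reach further from 0 than the 1367 lower ones, and the genes furthest up lie at low to moderate levels.

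The deposited values are scaled, so their sums are not sequencing depths and the number of reads behind each library is unknown. The sum was 2539544 ± 45883 in untreated and 2728969 ± 34021 in IL-4 1 h samples (SD, n = 3 each), and the 11854 genes held 98.9 to 99.2% of it. Replicates 2 and 3 lay closer to each other than either did to replicate 1. In the 460 genes whose mean reached 1000, the SD of the log2 ratio was 0.0923 between untreated replicates 2 and 3 and 0.157 between those of IL-4 1 h, against 0.34 to 0.38 for pairs with replicate 1. If replicates 2 and 3 are averaged and counted as 1 sample, 876 genes were higher and 609 lower, and with a replicate block 1944 were higher and 2080 lower. Without replicate 2 the counts were 789 and 568, without replicate 3 868 and 510, and without replicate 1 1756 and 2259. For gene lists, the lowest and highest counts over all alternative settings are given below.

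All 10 macrophage markers were measured, and their summed level was 10064 to 11202 in untreated and 11811 to 13437 in IL-4 1 h libraries. Adgre1, which encodes F4/80, held 4508, 4175 and 4051 counts in the untreated libraries and 5833, 5564 and 5711 after IL-4. Csf1r, the receptor for the macrophage growth factor, held 2052, 1814 and 2048 and then 2680, 2529 and 2030. Lyz2, the lysozyme gene of myeloid cells, fell from 917, 842 and 1054 to 404, 489 and 280 (log2 change −1.29, adjusted p = 0.00047). Summed markers of other cells were low in every library: 33 to 69 in untreated and 43 to 54 in IL-4 1 h libraries for dendritic cells (Ccr7 and Xcr1 at 0 in all 6), 7 to 18 and 8 to 25 for neutrophils (Elane, Ly6g and Retnlg at 0), 5 to 13 and 2 to 3 for T and NK cells (Cd3e, Cd3g, Gzmb and Ncr1 at 0), and 3 to 7 and 1 to 2 for B cells (Igll1 among those at 0). The list of fibroblast and endothelial markers summed to 49 to 95 in untreated and 80 to 180 in IL-4 1 h libraries. Its collagen genes Col1a2 and Col1a1 were highest in replicate 1 of both groups. Col1a2 held 53, 30 and 22 counts and then 85, 19 and 19. Col1a1 held 35, 27 and 15 and then 44, 8 and 10. In replicates 2 and 3 both of these genes were lower after IL-4 than untreated. Col3a1, also in the list, held 1, 1 and 0 and then 1, 0 and 3. Within it Pecam1, an adhesion receptor that leukocytes also make, rose from 5, 7 and 9 to 47, 49 and 53 (log2 change 2.69, adjusted p = 4.9e-07), while Cdh5, which defines endothelial cells, stayed between 0 and 2. In such bulk samples fewer cells of a type and less RNA per cell cannot be told apart.

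The largest rises were of genes that untreated macrophages barely transcribed. Pdcd1lg2 (chr19:29410919-29472927) encodes PD-L2, a ligand of the T cell inhibitory receptor PD-1. It held 1, 0 and 2 counts in the untreated libraries and 162, 186 and 200 after 1 h of IL-4, at least 60.9-fold higher against a floor of 3 counts (adjusted p = 3.16e-09). Socs1 (chr16:10783808-10785536), which blocks JAK kinases, held 0, 2 and 1 counts and then 160, 197 and 175, at least 59.1-fold higher (adjusted p = 9.0e-09). Rasgrp1 (chr2:117279983-117342877), an activator of Ras, held 2, 1 and 3 and then 229, 218 and 251, at least 77.6-fold higher. Tarm1 (chr7:3486500-3502624), a receptor of the leukocyte receptor cluster, was at 0 in all untreated libraries and at 77, 101 and 113 after IL-4, at least 32.3-fold higher. These genes were chosen with no overlap between the groups, so that separation is no result of its own.

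The next rises also began from low levels. Tmem26, a membrane protein gene, held 5, 0 and 2 counts and then 127, 112 and 143 (log2 change 5.61 ± 0.42 SE, adjusted p = 2.1e-07). Cish, another SOCS family inhibitor of cytokine receptors, held 1, 5 and 1 and then 120, 132 and 112 (log2 change 5.40 ± 0.34). Slc7a2, a carrier that brings arginine into the cell, held 12, 14 and 11 and then 429, 530 and 495, which was 39.3-fold by the means (log2 change 5.19 ± 0.14, adjusted p = 2.9e-11). Flt1, the VEGF receptor 1 kinase, held 7, 14 and 9 and then 267, 420 and 298, or 32.8-fold (log2 change 4.93 ± 0.24). Il1r1, the signalling receptor for interleukin-1, rose from 3, 0 and 3 to 57, 70 and 82, at least 23.2-fold. St8sia1, which adds sialic acid to gangliosides, rose from 3, 2 and 3 to 38, 72 and 93, at least 22.6-fold. These 10 genes were the largest rises by fitted log2 change among protein-coding genes with a mean of at least 50 in the higher group. The groups were also required not to overlap.

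The largest falls were smaller in ratio. They began from higher levels by the rule of choice, which for a fall required an untreated mean of at least 50. Cx3cr1, the fractalkine receptor of monocytes and macrophages, held 147, 221 and 279 counts in untreated libraries and 17, 36 and 20 after IL-4 (log2 change −3.12 ± 0.30, adjusted p = 2.0e-06). Ramp1, a partner chain of the CGRP receptor, went from 75, 93 and 79 to 14, 11 and 9 (log2 change −2.77). Nfatc2, a calcium-regulated transcription factor, went from 723, 635 and 663 to 105, 115 and 104, with little spread in either group (log2 change −2.63 ± 0.10, adjusted p = 3.1e-10). The lectin receptor gene Clec4d went from 654, 567 and 521 to 141, 112 and 100 (log2 change −2.30), and the integrin subunit gene Itgb5 from 981, 1017 and 941 to 205, 230 and 180 (log2 change −2.26). No overlap between the groups was again a condition of the choice.

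Klhl6 and 4 others completed the 10 largest. Klhl6 itself, an adaptor of ubiquitin ligases, fell from 264, 244 and 265 to 44, 51 and 45 (log2 change −2.44). Slc16a10, an aromatic amino acid carrier, fell from 977, 898 and 903 to 235, 164 and 140 (log2 change −2.39), and the solute carrier Slc45a4 from 298, 266 and 256 to 69, 51 and 42 (log2 change −2.34). Arrdc3, an arrestin-related adaptor, fell from 124, 163 and 151 to 22, 31 and 36 (log2 change −2.28). Nt5dc2 fell from 98, 99 and 86 to 20, 23 and 10 (log2 change −2.43), and it overlaps Stab1, so that both genes may share reads. All 20 of these rises and falls kept their call under every alternative setting that was run for them. They were chosen as the largest changes in these same libraries, so this does not show how firm other calls are.

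**Figure D2:**
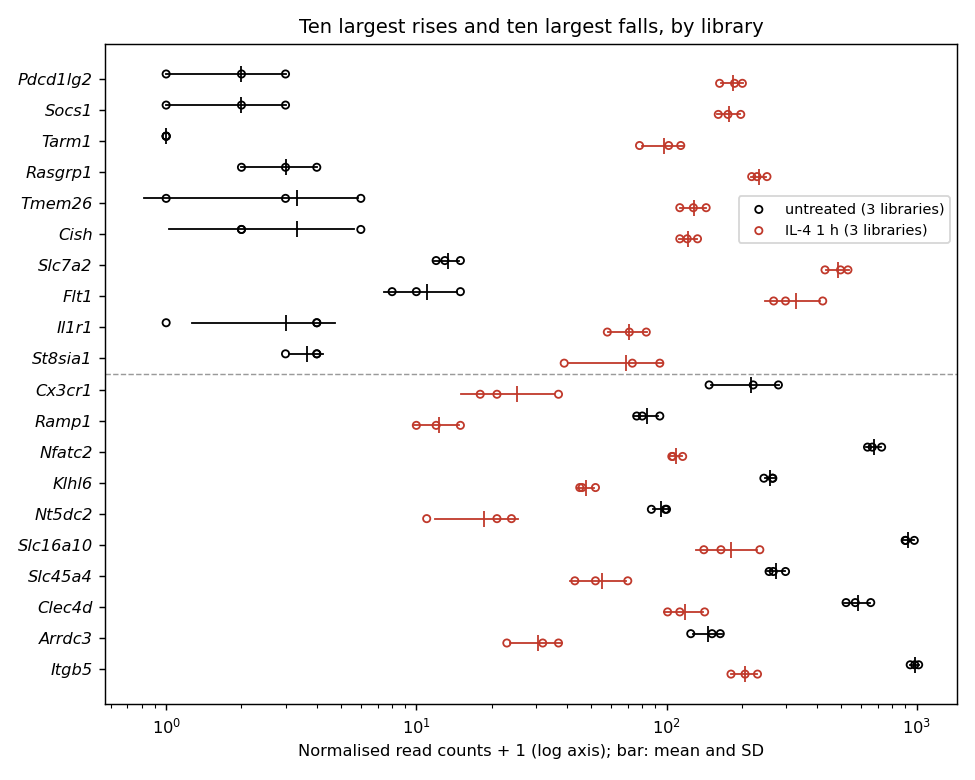
Normalised read counts plus 1 (x axis, log scale) in the 3 untreated and 3 IL-4 1 h libraries for the 10 largest rises (above the dashed line) and the 10 largest falls. Each circle is a library and the bar is the mean and SD. Genes were chosen with no overlap between the 2 groups, and Rasgrp1 held 1 to 3 counts against 218 to 251.

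Among genes that do not code for protein, the 4 largest rises and 4 largest falls all overlapped another annotated gene. Since the strand of the counting is not stated, reads of the overlapping pair cannot be told apart. Gm52895 and Gm52894, both inside St7, rose from 12, 10 and 10 to 164, 183 and 187 and from 9, 5 and 15 to 122, 151 and 147 (log2 changes 3.94 and 3.83). Gm11753, inside Tbc1d16, rose from 36, 30 and 32 to 491, 386 and 319 (log2 change 3.55), and Gm51749, inside Rgl1, from 26, 9 and 7 to 197, 137 and 114 (log2 change 3.50). Gm33858, which overlaps Cx3cr1, fell from 67, 92 and 105 to 11, 8 and 7 (log2 change −3.20). F630028O10Rik, the transcript that holds the myeloid microRNA gene Mir223, fell from 495, 664 and 922 to 59, 70 and 94 (log2 change −3.19). LOC115488151, which overlaps Lhfpl2, fell by 2.44 and Gm51623, which overlaps Pgap1, by 2.31 on the log2 scale.

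Genes of the IL-4 receptor, JAK and STAT pathway moved in both directions. Of 30 tested, 7 (23.3%) were higher and 8 (26.7%) lower, against 12.6% and 11.5% of all genes tested. The median log2 change was 0.01 against −0.02 for all genes tested. Il4ra, the binding chain of the receptor, rose from 427, 397 and 471 to 1493, 1140 and 940 (log2 change 1.44 ± 0.17, adjusted p = 1.6e-05). Il13ra1, the chain of the receptor form that also takes IL-13, fell from 59, 47 and 44 to 23, 14 and 10 (log2 change −1.68, adjusted p = 0.00055). Il2rg, the common gamma chain, held 28, 35 and 32 and then 29, 42 and 17, and the groups overlapped (log2 change −0.19 ± 0.33, adjusted p = 0.75).

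Of the JAK kinases, Jak2 rose from 138, 168 and 176 to 506, 632 and 655 (log2 change 1.89, adjusted p = 5.4e-07). Jak1 held 1238, 1014 and 1105 and then 1132, 938 and 930 (log2 change −0.16 ± 0.10, adjusted p = 0.30), and Jak3 held 98, 99 and 84 and then 117, 83 and 94 (log2 change 0.05 ± 0.18, adjusted p = 0.87). Neither passed the test and in both the groups overlapped. Stat6 itself held 209, 245 and 225 in untreated libraries and 178, 170 and 142 after IL-4 (log2 change −0.47, adjusted p = 0.0095), a fall that did not pass when replicates 2 and 3 were averaged or when replicate 2 or 3 was left out. The interferon pathway factor Stat2 rose (1.04), as did Irs2, the adaptor that links the receptor to PI3-kinase (1.21), the PI3-kinase subunit gene Pik3r1 (0.73), and Ptpn2 (0.93) and Ptpn1 (0.77), phosphatases that act on JAK kinases. The lower genes included Ptprc, which encodes the phosphatase CD45 (−0.78), the coactivator genes Ncoa1 (−0.56) and Ep300 (−0.55), the phosphatase gene Ptpn6 (−0.55) and the lipid phosphatase gene Inpp5d (−0.52), all as log2 changes. Ptpn1 and Ptprc did not pass without replicate 2, nor Ep300 without replicate 3. The counts ran from 6 to 9 higher and 5 to 10 lower over the alternative settings.

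The SOCS family and other feedback inhibitors held some of the largest rises of the whole comparison. Of 24 tested, 7 (29.2%) were higher and 4 (16.7%) lower, against 12.6% and 11.5% of all genes tested (median log2 change 0.13). Beside Socs1 and Cish, Socs2 rose from 1 count in each untreated library to 35, 32 and 32, at least 11-fold against the floor of 3. Socs5 rose from 159, 164 and 189 to 440, 456 and 473 (log2 change 1.42). Socs3 was too low to be tested, with 3, 2 and 5 counts in untreated and 4, 3 and 5 in IL-4 1 h libraries. Among phosphatases that switch off MAP kinases, Dusp4 rose from 9, 7 and 10 to 97, 108 and 93 (log2 change 3.39, adjusted p = 1.6e-09). Dusp1 went from 14, 22 and 39 to 6, 5 and 5 (log2 change −1.93) and Dusp5 from 14, 10 and 13 to 7, 2 and 3 (log2 change −1.53), and neither of these falls passed when replicates 2 and 3 were averaged or when either was left out. The same held for Pias1, and Rgs2 did not pass when they were averaged or without replicate 3, so that the list had 6 higher and 0 lower members with these replicates averaged. Over the alternative settings it had 5 to 10 higher and 0 to 6 lower.

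Alternative activation genes were the list with the most rises for its size. Of 26 tested, 18 (69.2%) were higher and 1 (3.8%) lower, against 12.6% and 11.5% of all genes tested. The median log2 change was 1.56. Pdcd1lg2, Tmem26, Cdh1, Mgl2 and Ch25h, all among the rises, reached 10 counts in no untreated library. They passed the filter through the IL-4 libraries alone, so the share of rises is partly set by the filter. Mrc1, the mannose receptor CD206, held 2386, 1541 and 1708 counts and then 16253, 14498 and 16212, which made it one of the highest genes after IL-4 (log2 change 3.08 ± 0.14, adjusted p = 1.6e-09). Cdh1, the E-cadherin gene, went from 0 in all untreated libraries to 23, 47 and 52, at least 13.6-fold. The lectin receptor gene Clec7a rose from 127, 153 and 144 to 561, 739 and 750 (2.26), Gatm, the first enzyme of creatine synthesis, from 38, 61 and 63 to 205, 427 and 382 (2.59), Tgm2, a protein crosslinking enzyme, from 74, 87 and 97 to 221, 337 and 202 (1.52), and the growth factor gene Igf1 from 2149, 1237 and 1418 to 5677, 3388 and 3572 (1.40), all as log2 changes. Mgl2, a galactose lectin, rose from 7, 1 and 1 to 35, 17 and 21, and this did not pass without replicate 3.

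Several classical markers of the programme were low or listed at 0 at 1 h. Arg1, arginase 1, held 6, 7 and 15 counts in untreated libraries and 24, 35 and 30 after IL-4 (log2 change 1.65, adjusted p = 0.0093), a rise that did not pass when replicates 2 and 3 were averaged or without replicate 2. Chil3, Chil4, Ccl22 and Alox15 were listed at 0 in all 6 libraries. So were Fcgr3, Csf2ra and Dapk3, which macrophages are known to express, so that a 0 in this table, here and among the cell type markers above, may be a gene that was not counted. Retnla held 0 in each untreated library and 1, 6 and 1 after IL-4, and the chemokine gene Ccl24 held 0, 2 and 0 and then 11, 7 and 10. Both were below the filter and were not tested, as was Ccl17, with 1 count in 1 untreated library. Values for Clec10a (63, 20 and 23, then 117, 48 and 41) and Fn1 (97, 31 and 33, then 196, 74 and 71) did not pass the test. Vegfa was the lower member, at 131, 91 and 65 and then 54, 31 and 32 (log2 change −1.26, adjusted p = 0.035), and it did not pass when replicates 2 and 3 were averaged. The alternative settings gave 13 to 21 higher and 0 to 2 lower members.

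Transcription factors and chromatin regulators known from IL-4 responses also rose more often than they fell. Of 39 tested, 18 (46.2%) were higher and 5 (12.8%) lower, against 12.6% and 11.5% of all genes tested (median log2 change 0.48). Myc, a driver of growth and metabolism, went from 6, 14 and 9 to 115, 116 and 92 (log2 change 3.41 ± 0.27, adjusted p = 3.9e-07). Egr2, an early growth response factor, went from 2, 1 and 5 to 50, 25 and 26 (3.32), Batf3, a partner of AP-1 factors, from 5, 5 and 4 to 71, 42 and 48 (3.24), and Irf4, an interferon regulatory factor linked to alternative activation, from 21, 16 and 10 to 113, 85 and 86 (2.57), all as log2 changes with no overlap between groups. Tfec, a relative of MITF made in macrophages, was far more abundant and rose from 558, 531 and 562 to 4495, 4364 and 4622 (log2 change 3.03, adjusted p = 2.6e-09).

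Ppargc1b, the coactivator PGC-1β of oxidative metabolism, rose from 83, 62 and 52 to 701, 448 and 428 (log2 change 2.97), and Pparg, the nuclear receptor it can bind, from 986, 742 and 689 to 1977, 1645 and 1563 (log2 change 1.11). Kdm6b, a demethylase of histone H3 lysine 27, rose from 24, 20 and 25 to 67, 68 and 68 (log2 change 1.52), and Tet2, which oxidises methylated cytosine, from 968, 992 and 972 to 1997, 2330 and 2196 (log2 change 1.15). Klf4 (2, 1 and 5, then 12, 16 and 12) and Bhlhe40 (3, 5 and 4, then 12, 14 and 11) passed at low counts, Klf4 not without replicate 2 and Bhlhe40 not without replicate 3. Of the lower members, Runx1 went from 5616, 5527 and 5823 to 4229, 3834 and 4044 (log2 change −0.49) and Klf6 from 208, 224 and 253 to 150, 139 and 121 (log2 change −0.74). Spi1, which encodes the macrophage factor PU.1, Maf and Zbtb16 passed in this fit (log2 changes −0.30, −0.97 and −0.91) and not when replicates 2 and 3 were averaged. The list had 14 higher and 2 lower members with these replicates averaged, 21 and 10 with the replicate block, and 11 to 21 higher and 2 to 10 lower over all alternative settings.

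Immediate early genes did not move as a group. Of 14 tested, 4 (28.6%) were higher and 3 (21.4%) lower, against 12.6% and 11.5% of all genes tested (median log2 change −0.04). Apart from Egr2, Ier3 rose from 10, 14 and 16 to 53, 54 and 37 (log2 change 1.78) and the AP-1 gene Fosl2 from 110, 122 and 135 to 339, 430 and 335 (log2 change 1.58). Fos, also of AP-1, fell from 15, 19 and 45 to 5, 2 and 3 (log2 change −2.56, adjusted p = 0.0011), a fall that did not pass without replicate 3, and the antiproliferative gene Btg2 fell from 22, 30 and 46 to 5, 5 and 6 (log2 change −2.35). Over the alternative settings 1 to 4 members were higher and 0 to 5 lower.

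Primary NF-kB targets split evenly, with 4 higher and 4 lower of 17 tested (median log2 change −0.11). Each was 23.5% of those tested, against 12.6% and 11.5% of all genes tested. Cd40, a receptor through which T cells activate macrophages, rose from 44, 27 and 43 to 296, 220 and 239 (log2 change 2.72), Tnip3, an inhibitor of the pathway, from 226, 265 and 299 to 937, 904 and 1007 (1.85), Rel, a subunit of NF-kB, from 402, 461 and 508 to 1214, 1229 and 1134 (1.39), and the subunit gene Nfkb1 from 835, 748 and 791 to 1391, 1835 and 1733 (1.05). Nfkbiz, an atypical IkB protein, fell from 199, 202 and 233 to 62, 40 and 47 (log2 change −2.09, adjusted p = 2.0e-06), and Nfkbid, of the same family, from 76, 109 and 110 to 38, 44 and 44 (log2 change −1.19). Nfkbia, the feedback inhibitor IkBα, held 49, 55 and 55 and then 60, 47 and 31, with overlapping groups (log2 change −0.25 ± 0.26, adjusted p = 0.56). The inflammatory cytokine genes Tnf (4, 9 and 8, then 4, 4 and 1) and Il1b (6, 9 and 24, then 4, 1 and 2) were too low to be tested. The range was 4 to 5 higher and 2 to 6 lower over the alternative settings.

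Of 32 interferon-responsive genes tested, 7 (21.9%) were higher and 1 (3.1%) lower, against 12.6% and 11.5% of all genes tested. Their median log2 change was 0.00. Irf7 rose from 21, 20 and 25 to 56, 86 and 72 (log2 change 1.64) and the GTPase gene Gbp5 from 22, 27 and 23 to 72, 48 and 60 (log2 change 1.27), while Mx1, an antiviral GTPase, held 80, 67 and 102 and then 118, 91 and 83 (log2 change 0.23 ± 0.28, adjusted p = 0.62). Herc6 was the lower member, at 176, 177 and 197 and then 111, 105 and 135 (log2 change −0.65). This list was sensitive to the processing: 3 members were higher with replicates 2 and 3 averaged, 4 with equal totals and 2 to 8 over all alternative settings.

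Chemokines and their receptors fell more often than they rose. Of 16 tested, 2 (12.5%) were higher and 7 (43.8%) lower, against 12.6% and 11.5% of all genes tested (median log2 change −0.56). The ligand genes that rose were Ccl7, from 0, 2 and 2 to 27, 55 and 22, at least 11.6-fold, and Ccl2, from 0, 6 and 3 to 12, 18 and 15, both attractants of monocytes. The falls were of receptors, apart from Cxcl16. After Cx3cr1, Ccr2, the monocyte receptor for Ccl2, held 44, 97 and 97 and then 9, 31 and 23 (log2 change −1.94, adjusted p = 0.0035), and the complement receptor gene C5ar1 held 217, 180 and 198 and then 69, 70 and 39 (log2 change −1.77). Cxcr4 went from 90, 72 and 53 to 31, 24 and 17 (log2 change −1.55). Ccl2, Ccr2 and C5ar1 did not pass without replicate 3, and Cxcr4 not without replicate 2. The counts were 1 higher and 3 lower without replicate 3, and 0 to 2 and 3 to 8 over all alternative settings.

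Cytokines, growth factors and their receptors showed 11 higher and 11 lower of 39 tested (median log2 change 0.05). Each was 28.2% of those tested, against 12.6% and 11.5% of all genes tested. Growth factor genes among the rises were Hbegf, an EGF receptor ligand (2, 0 and 0, then 33, 24 and 21, at least 8.67-fold), Pdgfc (243, 96 and 69, then 901, 661 and 593, log2 change 2.58) and Pdgfa (22, 20 and 14, then 68, 51 and 41, log2 change 1.46). Il1rl2, a receptor for interleukin-36, rose from 4, 5 and 8 to 42, 57 and 54 , and Csf2rb, the shared chain of the GM-CSF receptor, from 496, 492 and 579 to 878, 1111 and 905 (log2 change 0.88). Among the falls, Pdgfb went from 72, 60 and 68 to 28, 12 and 17 (log2 change −1.83), Il17ra from 167, 187 and 191 to 46, 77 and 49 (log2 change −1.68) and Tnfrsf14 from 185, 197 and 233 to 94, 102 and 76 (log2 change −1.17). With the replicate block 17 members were higher and 14 lower, and over all alternative settings 7 to 17 and 5 to 14.

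Lectin, Fc and scavenger receptors held 11 higher and 15 lower members of 47 tested (median log2 change −0.27). These were 23.4% and 31.9%, against 12.6% and 11.5% of all genes tested. Fcgr2b, the inhibitory Fc receptor for IgG, rose from 235, 160 and 158 to 1548, 1590 and 1494 (log2 change 3.08, adjusted p = 5.5e-09), and Cd36, a scavenger receptor for oxidised lipids, from 334, 274 and 356 to 1114, 1827 and 2027 (log2 change 2.32). The falls included the C-type lectin genes next to Clec4d on chromosome 6: Clec4b1 (70, 49 and 38, then 18, 6 and 11, log2 change −2.15), Clec4a2 (291, 234 and 180, then 140, 104 and 122, −0.92), Clec4n and Clec4e, of which Clec4n and Clec4e did not pass with replicates 2 and 3 averaged and Clec4b1 and Clec4a2 not without replicate 2. Clec12a, an inhibitory lectin, fell from 255, 276 and 296 to 56, 104 and 86 (log2 change −1.78). Of the Toll-like receptor genes in the list, Tlr2, Tlr7, Tlr9 and Tlr13 were lower and Tlr4 and Tlr8 higher. Tlr2 went from 60, 58 and 57 to 18, 20 and 11 (−1.82), Tlr13 from 117, 104 and 135 to 45, 55 and 37 (−1.37) and Tlr7 from 943, 832 and 937 to 579, 500 and 529 (−0.75), all as log2 changes. Tlr4, the LPS receptor, held 304, 356 and 388 and then 486, 631 and 686 (log2 change 0.77), a rise that did not pass with replicates 2 and 3 averaged. Tlr8, an RNA sensor like Tlr7 and Tlr13, held 412, 477 and 490 and then 537, 659 and 643 (log2 change 0.41, adjusted p = 0.040), which did not pass with these replicates averaged, without replicate 2 or 3, or with equal totals. Tlr9, a DNA sensor, held 49, 51 and 64 and then 30, 45 and 26 (log2 change −0.71, adjusted p = 0.027, not passing with these replicates averaged or without replicate 3). Over the alternative settings 7 to 15 members were higher and 9 to 22 lower.

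Of the genes of arginine, polyamine and creatine metabolism, 9 were higher and 3 lower of 19 tested (median log2 change 0.20). These were 47.4% and 15.8%, against 12.6% and 11.5% of all genes tested. The rises of Slc7a2 and Gatm have been given, and Oaz2, an inhibitor of polyamine synthesis, rose from 48, 56 and 57 to 85, 102 and 92 (log2 change 0.78). These were the 3 higher members left with replicates 2 and 3 averaged or without replicate 2. Slc7a7, which exports arginine, fell from 292, 191 and 222 to 89, 74 and 58 (log2 change −1.66), the creatine kinase gene Ckb from 64, 101 and 100 to 29, 31 and 25 (log2 change −1.58), and Smox, an oxidase of spermine, from 211, 208 and 184 to 131, 153 and 134 (log2 change −0.53). The 3 falls were kept in all settings that were listed for single genes, which were both rescalings, the replicate block, the averaged replicates and the omission of each replicate number.

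Lipid handling and nuclear receptor genes showed 7 higher and 9 lower of 43 tested (median log2 change −0.13). These were 16.3% and 20.9%, against 12.6% and 11.5% of all genes tested. Rara, a retinoic acid receptor, rose from 103, 67 and 79 to 317, 244 and 266 (log2 change 1.73), and Ch25h, which makes 25-hydroxycholesterol, from 1, 3 and 3 to 19, 16 and 20, at least 6.11-fold. Cyp27a1, another sterol hydroxylase, fell from 335, 309 and 264 to 130, 99 and 113 (log2 change −1.40), and Alox5ap, needed for leukotriene synthesis, from 118, 145 and 151 to 38, 62 and 50 (log2 change −1.47). Abca1, the cholesterol exporter, held 2734, 1967 and 1984 and then 1214, 701 and 624 (log2 change −1.44, adjusted p = 0.0033), which did not pass with replicates 2 and 3 averaged. With the replicate block 9 were higher and 14 lower, and over all alternative settings 6 to 9 and 5 to 17.

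Glycolysis and mitochondrial genes showed 7 higher and 5 lower of 35 tested (median log2 change 0.14). The lower members were 14.3% of those tested, near the 11.5% of all genes tested. The share of higher members lay further above the 12.6% of all genes tested. Members of 1 step moved apart. Hk3, a hexokinase of myeloid cells, rose from 157, 180 and 187 to 390, 501 and 408 (log2 change 1.30 ± 0.13, adjusted p = 2.8e-06), while Hk2, another hexokinase, fell from 99, 85 and 86 to 38, 35 and 25 (log2 change −1.45). The glucose carrier gene Slc2a1 rose from 50, 45 and 46 to 108, 120 and 121 (log2 change 1.29). Pfkfb3, which makes an activator of glycolysis, fell from 330, 234 and 249 to 146, 94 and 95 (log2 change −1.29), and the mitochondrial carrier gene Ucp2 from 375, 440 and 539 to 186, 226 and 188 (log2 change −1.16). Alternative settings gave 3 to 8 higher and 3 to 7 lower members.

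In antigen presentation and costimulation 7 (26.9%) were higher and 3 (11.5%) lower of 26 tested, against 12.6% and 11.5% of all genes tested (median log2 change 0.06). Next to Pdcd1lg2, Cd274, which encodes PD-L1, rose from 51, 28 and 44 to 359, 289 and 301 (log2 change 2.95, adjusted p = 2.7e-07), and Cd86, a ligand that activates T cells, from 151, 125 and 100 to 546, 341 and 348 (log2 change 1.69). Vsir, the checkpoint ligand VISTA, fell from 586, 517 and 509 to 220, 240 and 184 (log2 change −1.33), and Icosl from 49, 60 and 74 to 28, 23 and 31 (log2 change −1.12, not passing without replicate 2). Over the alternative settings 6 to 8 members were higher and 1 to 4 lower.

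**Figure D3:**
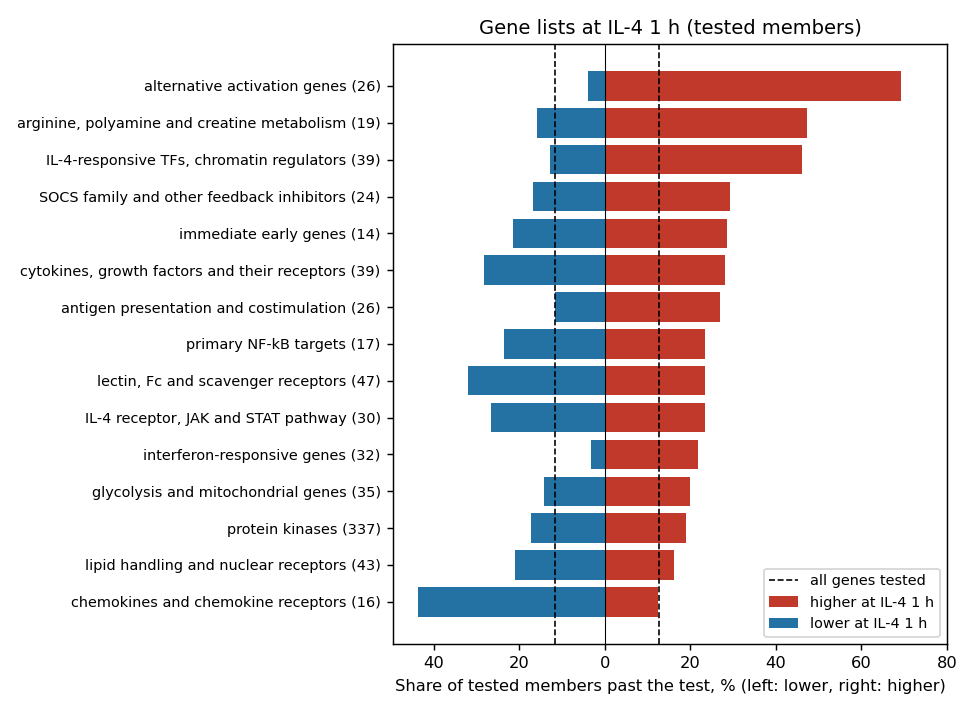
Share of tested members of each gene list that were higher (to the right) or lower (to the left) after 1 h of IL-4, in percent, with the number tested in brackets. Dashed lines mark the shares over all 11854 genes, 12.6% higher and 11.5% lower. Alternative activation genes had 18 of 26 higher, some of them tested only through their IL-4 libraries. Chemokines and their receptors had 7 of 16 lower.

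The study used the transcription of protein kinases when choosing inhibitors. Of 337 kinases tested, 64 (19.0%) were higher and 58 (17.2%) lower, against 12.6% and 11.5% of all genes tested (median log2 change −0.05). The largest rise was Flt1. Ripk2, the kinase downstream of the NOD receptors, rose from 185, 152 and 154 to 804, 1348 and 1277 (log2 change 2.77, adjusted p = 5.3e-07), and Fyn, of the Src family, from 428, 570 and 571 to 3537, 3244 and 3391 (log2 change 2.71, adjusted p = 1.6e-09). Rps6kc1, related to the ribosomal S6 kinases, rose from 488, 462 and 481 to 2615, 2211 and 2126 (log2 change 2.27), and the pseudokinase gene Trib1 from 24, 38 and 34 to 185, 132 and 140 (log2 change 2.23). These 5 were chosen by the same limits, no overlap between the groups among them.

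The largest falls among kinases were Stk10, which acts on cytoskeletal linkers, from 326, 344 and 337 to 106, 68 and 70 (log2 change −2.06), and Stk17b, linked to cell death, from 644, 656 and 772 to 150, 195 and 190 (log2 change −1.95). Sgk1, a kinase induced by steroid hormone and growth factors, went from 42, 61 and 49 to 16, 16 and 13 (log2 change −1.68), and Map3k9 from 85, 132 and 113 to 46, 36 and 28 (log2 change −1.56). These 4 were chosen by the same limits. Matk, which restrains Src family kinases, held 11, 20 and 14 and then 23, 32 and 29 (log2 change 0.88, adjusted p = 0.0044), a rise that did not pass with replicates 2 and 3 averaged or without replicate 3. The kinase counts were 42 higher and 32 lower with replicates 2 and 3 averaged, 53 and 74 with equal totals, and 39 to 80 and 26 to 88 over all alternative settings.

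The 1 h libraries were also set against those of the neighbouring times. Against 0.5 h, 613 genes were higher at 1 h and 502 lower, 5.17% and 4.23% of the 11854 genes, and against 2 h 757 were higher and 559 lower, 6.39% and 4.72%. With equal totals the share of higher genes among calls against 2 h went from 57.5% to 40.8%. These comparisons share the 1 h libraries with the main one and with each other. Their counts depended strongly on the replicates: with replicates 2 and 3 averaged 123 genes differed from 0.5 h and 264 from 2 h, without replicate 2 97 and 211, without replicate 3 102 and 255, and with the replicate block 2267 and 2357.

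Among genes that rose at 1 h, the largest further rises since 0.5 h were of Ppargc1b, Il1r1, Fmnl2, Tmem26, St8sia1 and Pdcd1lg2. Pdcd1lg2 held 44, 73 and 61 counts at 0.5 h, 162, 186 and 200 at 1 h, then 324, 479 and 497 at 2 h (log2 change from 0.5 to 1 h 1.63, adjusted p = 0.0052). Ppargc1b held 241, 112 and 107 at 0.5 h and 701, 448 and 428 at 1 h (log2 change 1.84, adjusted p = 0.0012), and Tmem26 42, 41 and 34 and then 127, 112 and 143 (log2 change 1.68, adjusted p = 0.023). Fmnl2, an actin regulator, went from 1208, 520 and 483 to 3005, 1810 and 1938 (log2 change 1.70, adjusted p = 0.0076). With replicates 2 and 3 averaged, of these 6 only the Pdcd1lg2 rise since 0.5 h passed (adjusted p = 0.027). The means of Socs1 lay nearer each other, with 133 counts in the 0.5 h, 177 in the 1 h, 196 in the 2 h and 139 in the 4 h group.

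Other genes that were higher at 1 h than in untreated cells had lower values at 1 h than at 0.5 h. Of the 6 with the largest such decline, 2 passed the test: Osgin2 went from 88, 155 and 150 at 0.5 h to 53, 64 and 76 at 1 h (log2 change −0.99, adjusted p = 0.011), and Plek, the platelet and leukocyte protein pleckstrin, from 2474, 1923 and 1946 to 1396, 1044 and 1052 (log2 change −0.86, adjusted p = 0.0034). Neither passed with replicates 2 and 3 averaged. Cd36 held 1827, 3620 and 4604 at 0.5 h, 1114, 1827 and 2027 at 1 h, then 161, 124 and 169 at 2 h; its change from 0.5 to 1 h did not pass (adjusted p = 0.092), while its level at 1 h was above that at 2 h (log2 difference 3.41, adjusted p = 2.1e-05). Trib1 (means 288 at 0.5 h, 152 at 1 h and 39 at 2 h), Cd83 (377, 204 and 270) and Serpinb8 (147, 82 and 7) did not pass between 0.5 and 1 h either, with adjusted p between 0.056 and 0.100. The replicate block brought all 4 past the threshold (adjusted p at most 0.0364).

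Within the limits set for named genes, 34 protein-coding genes were higher in the 1 h group than in each of the untreated, 0.5 h and 2 h groups, and 47 were lower than in all 3. With replicates 2 and 3 averaged these counts were 4 and 6, with the replicate block 77 and 76. Bcl2, which protects cells from apoptosis, held 180, 231 and 244 untreated, 370, 506 and 475 at 0.5 h, 1231, 1338 and 1288 at 1 h, then 731, 374 and 512 at 2 h. Arap2, a regulator of small GTPases, had 117, 98 and 107 untreated, 428, 480 and 484 at 0.5 h, 1152, 1281 and 1200 at 1 h, then 566, 553 and 623 at 2 h. Abtb2 (means 50.7, 145, 349 and 166 in the same order), Ahcyl2 (708, 1764, 3341 and 1979), Snx25 (187, 267, 477 and 239) and Man1a, a mannosidase of the Golgi (1191, 3946, 6602 and 2338), followed the same course. With replicates 2 and 3 averaged, the 1 h level of Abtb2, Arap2, Ahcyl2 and Snx25 still passed against both 0.5 and 2 h, and that of Bcl2 and Man1a did not pass against 0.5 h (adjusted p = 0.095 and 0.12).

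The genes lowest at 1 h included Nfatc2 and Itgb5. Nfatc2 held 548, 426 and 482 at 0.5 h, 105, 115 and 104 at 1 h, then 196, 200 and 221 at 2 h. Itgb5 held 594, 645 and 600 at 0.5 h, 205, 230 and 180 at 1 h, then 422, 427 and 413 at 2 h. Ssbp3, a DNA-binding cofactor, had means of 304 untreated, 235 at 0.5 h, 93.3 at 1 h and 228 at 2 h, and Arhgef10l, an activator of small GTPases, 592, 432, 160 and 301. These 4 also passed with replicates 2 and 3 averaged. The same order of means was seen in Slco2b1, an organic anion carrier (345, 170, 82.3 and 225), and in Ramp1, but against 0.5 h neither passed with replicates 2 and 3 averaged (adjusted p = 0.18 and 0.070).

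**Figure D4:**
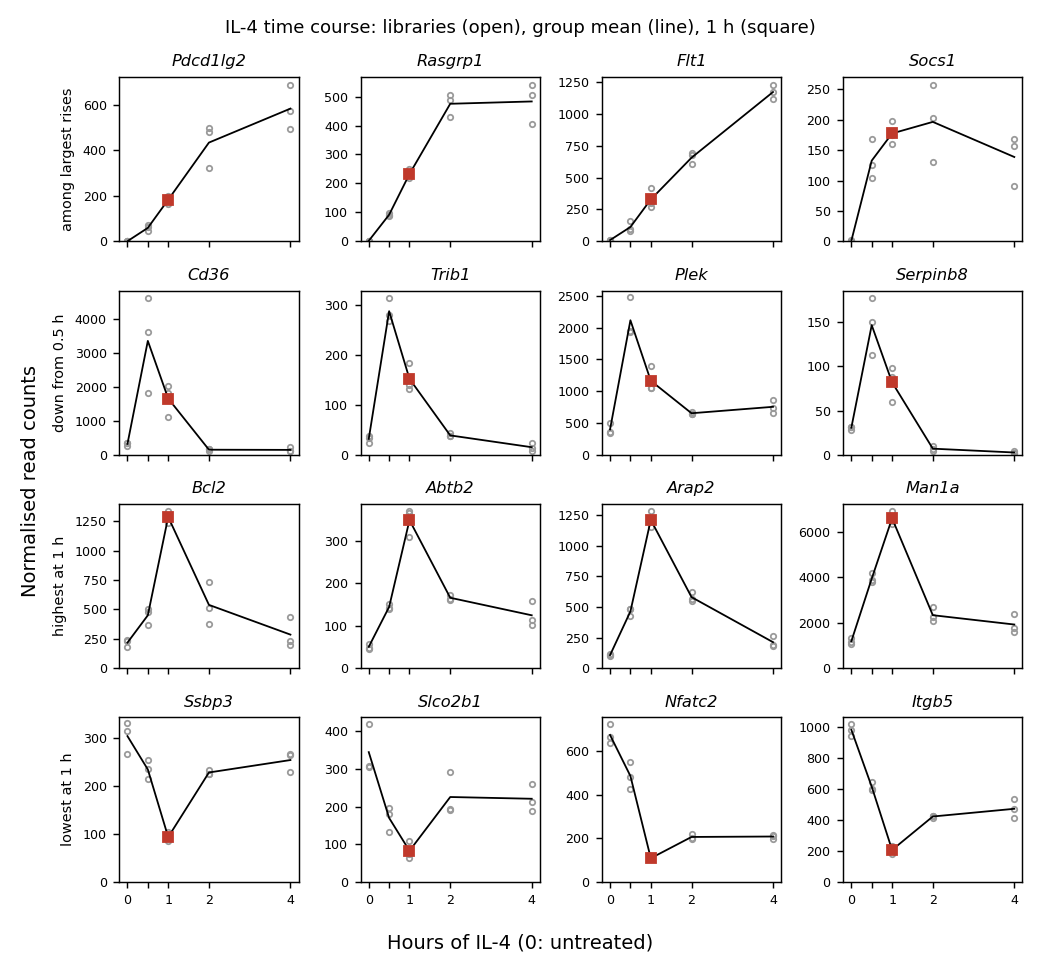
Normalised read counts (y axis, linear, its own scale in each panel) over hours of IL-4 (x axis, 0 is untreated); open circles are libraries, the line joins group means and the red square is the mean at 1 h. Rows show genes among the largest rises at 1 h, genes whose mean was lower at 1 h than at 0.5 h, genes highest at 1 h and genes lowest at 1 h; Bcl2 peaks at 1 h with 1231 to 1338 counts and Nfatc2 is lowest there with 104 to 115.

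The other stimulus of the series at the same time, LPS for 1 h, gave a larger set of differences: 5347 genes were higher after IL-4 than after LPS and 2680 lower, 45.1% and 22.6% of the genes tested. This split depended on the scaling. As deposited, the median gene was 0.43 higher after IL-4 on the log2 scale, and 66.6% of calls were higher after IL-4. With median-of-ratios factors the median was 0.08 and the share 52.7%, and with equal totals they were 0.90 and 81.3%. Of the genes that rose with IL-4, those most above LPS were Tbc1d16, Rtkn2, Pdcd1lg2, Gpr155 and St8sia1. Tbc1d16, a Rab GTPase regulator, held 178, 161 and 151 counts untreated, 2160, 1673 and 1461 with IL-4 and 10, 13 and 13 with LPS (log2 difference 7.08, adjusted p = 1.3e-18). Gpr155 held 191, 175 and 192 untreated, 522, 508 and 480 with IL-4 and 5, 5 and 4 with LPS (log2 difference 6.48), so that with LPS it lay below and with IL-4 above every untreated library. Rtkn2 held 9, 55 and 41 untreated, 106, 175 and 218 with IL-4 and 1, 0 and 1 with LPS, and its rise against untreated did not pass with replicates 2 and 3 averaged or without replicate 3. Pdcd1lg2 was at 1, 2 and 0 and St8sia1 at 0, 1 and 2 counts with LPS. Mrc1 had 473 counts in the mean with LPS against 1878 untreated and 15654 with IL-4.

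Some genes that rose with IL-4 stood far higher with LPS. Jdp2, a repressor of AP-1, held 79, 66 and 51 untreated, 142, 135 and 117 with IL-4 and 10891, 7425 and 6906 with LPS (log2 difference −5.96, adjusted p = 1.4e-13). Gbp5 held 22, 27 and 23 untreated, 72, 48 and 60 with IL-4 and 3202, 2877 and 2606 with LPS, and Phldb1 45, 52 and 44, 57, 61 and 66, and 2866, 2481 and 2612. Zhx2 had means of 111, 155 and 3713 in the same order, and Fnbp1l of 236, 361 and 8467. The rises of Phldb1 and Zhx2 with IL-4 were small (log2 changes 0.38 and 0.47). They did not pass in 13 and 12 of the 22 alternative settings, both rescalings and the averaged replicates among them. The rises of Cish and Slc7a2 had LPS values close by: Cish held 120, 132 and 112 with IL-4 and a mean of 163 with LPS (log2 difference −0.38, adjusted p = 0.30), and Slc7a2 429, 530 and 495 against a mean of 589 (log2 difference −0.28, adjusted p = 0.082), differences that did not pass the test. Socs1 was higher with IL-4, with a mean of 177 against 11.3 with LPS (log2 difference 4.08, adjusted p = 9.3e-09). Itgb5 was lower than untreated with both stimuli by its means, 205 with IL-4 and 195 with LPS, against 980 in untreated cells. Slc16a10 and Clec4d fell with IL-4 and stood higher with LPS than in untreated cells, at means of 5498 and 1599.7 with LPS against 926 and 581 untreated. Changes with LPS against untreated cells were not tested here.

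**Figure D5:**
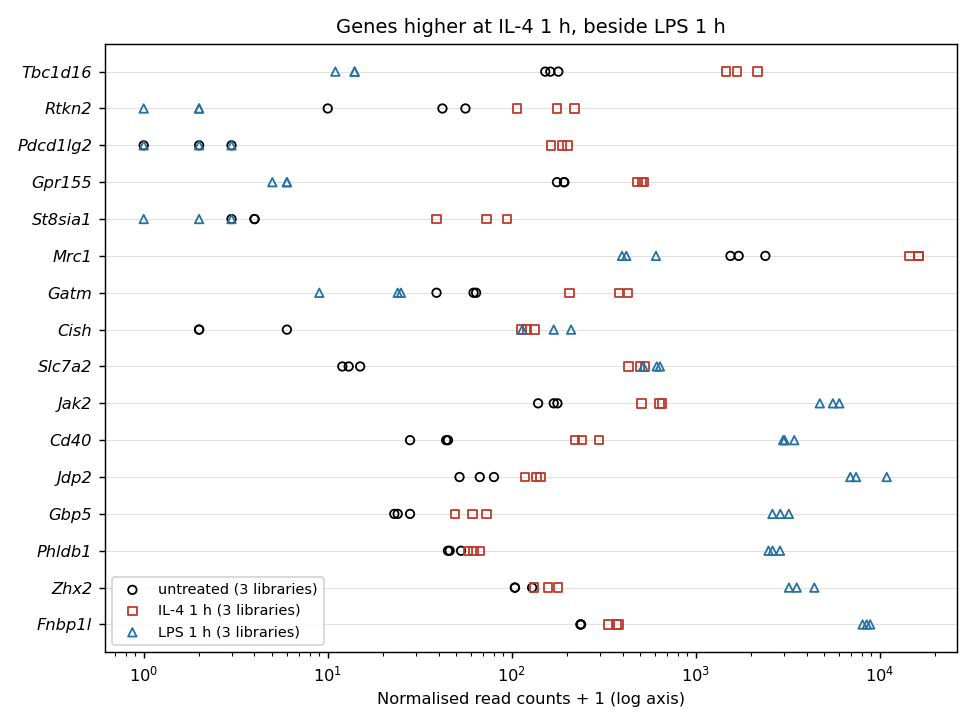
Normalised read counts plus 1 (x axis, log scale) in the untreated, IL-4 1 h and LPS 1 h libraries, 3 each, for 16 genes that were higher at IL-4 1 h than in untreated cells. Tbc1d16 and Pdcd1lg2 lie far to the right with IL-4 and at 13 counts or fewer with LPS, Cish and Slc7a2 lie close together in both, and Jdp2 reaches 6906 to 10891 with LPS against 117 to 142 with IL-4.

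The changed genes were longer than the average tested gene. Among protein-coding genes the median annotated length was 37.996 kb for those higher, 45.9 kb for those lower and 26.8 kb for all tested. The share of protein-coding genes that were higher went from 6.83% under 5 kb to 18.8% at 80 to 160 kb, and the share that were lower from 7.59% to 22.4%. Over 160 kb the shares were smaller again, at 14.8% and 15.4%. The median level went up along all these bins, from 19.3 under 5 kb to 343 at 80 to 160 kb and 413 over 160 kb in normalised read counts, and its part in these shares was not tested. Genes with the same call also lay together. Of the 1498 higher genes 375 overlapped another higher gene, against 4.73% of all tested, and of the 1367 lower genes 328 overlapped another lower gene, against 5.02%; since overlapping genes may share reads, these are not independent calls.

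Along the chromosomes there were 35 runs of at least 4 neighbouring protein-coding genes with the same call, 24 of higher and 11 of lower genes. One, at chr19:29101375-29605921, held Rcl1, Jak2, Plgrkt, Cd274, Pdcd1lg2 and Ric1, with log2 changes from 1.13 to 6.65, so the kinase gene Jak2 and the genes for both PD-1 ligands rose side by side. The run at chr10:67009189-68043864 held Reep3, Jmjd1c, Nrbf2, Egr2, Ado and Rtkn2 (0.65 to 3.32), and that at chr10:24149289-26375219 held 7 genes with Arg1 among them (0.24 to 1.85). The lower run at chr6:123049962-123289871 held Clec4b1, Clec4a2, Clec4n, Clec4d and Clec4e, with log2 changes from −2.30 to −0.92 and no overlap between the annotated genes. Other runs held genes that overlap another annotated gene and may share reads. In the lower run at chr1:88055411-88220002, from Ugt1a10 to Ugt1a2, this held for all 8 genes. How many runs the shares of called genes alone would give was not tested. Neighbours within such a run were counted from the tested genes alone, and reads that ran past the end of 1 gene into the next were not tested for.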

How the data were processed

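Chromatin-associated RNA of BMDMs was sequenced single-end on a NextSeq500 after a Smart-seq2 procedure with random primers, in 3 replicates per group. Per the study's methods and the submitters' processing notes, the authors aligned reads to mm10 with TopHat2 (2.1.1), removed multi-mapping and blacklisted reads (bedtools 2.29.2), counted reads per gene over GRCm38.p6 in R (3.6.2) and scaled the libraries on invariant genes. The deposited table holds the resulting normalised counts as whole numbers, and they were treated as a score, not as raw counts, so no count model was run and the depth is unknown. The strand of counting is not given in the sources used here. Reads of genes with near-identical copies are lost to the multi-mapping filter.

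Genes at 10 or more in 3 or more of the 6 libraries entered limma 3.58.1 on the scale log2(value + 1) (R 4.3.3; moderated test with a mean-variance trend, two-sided, Benjamini-Hochberg over all 11854 genes, threshold 0.05). The fit held the 15 untreated and IL-4 samples, and for LPS 1 h all 27. The impulse model that the study fitted over whole time courses was left out. Log2 changes are on this scale, which understates changes of low genes. If no library of a group exceeded 3, the fold is a bound against 3. Errors of log2 changes are standard errors from the fit. Scripts were tested on simulated data.

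Over 6753 genes, deviations from the group mean in untreated and IL-4 1 h samples correlated at 0.82, 0.53 and 0.56 for replicates 1, 2 and 3. IL-4 1 h replicate 2 correlated at 0.57 with untreated replicate 3, and IL-4 1 h replicate 3 at 0.59 with untreated replicate 2. Replicate 1 thus stood apart, while same-numbered and crossed pairs of replicates 2 and 3 correlated alike between these groups. Deviations from a mean of 3 are tied to each other. With replicate 1 apart, they cannot decide whether the numbers pair replicates 2 and 3. The lowest same-numbered value over all groups was 0.46, and some different-numbered samples reached 0.68. This grouping comes from the data, not from a stated batch.

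Named genes were a fixed set of pathway and marker genes; the 10 largest rises and falls among protein-coding genes past the threshold with a mean of at least 50 in the higher group and no overlap between groups; by the same limits, 4 each among other gene types and 5 each among kinases; the 6 genes most above, and the 6 most below, both neighbouring times at 1 h; among genes that rose, the 6 with the largest rise and the 6 with the largest decline from 0.5 h, and the 5 most above and 5 most below LPS. Members of the lists may be named too, and a few items that these rules would name are not reported here. The members and lists were chosen with earlier results of these data known; lists are described by counts and medians, with no set test. Alternatives were other pseudocounts, filters, scalings, samples in the fit, no trend, sample weights, a replicate block, replicates 2 and 3 averaged, and the omission of replicates.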

Additional observations from a re-analysis of the deposited data

Results flagged for a closer look

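The response at 1 h differed from that at the neighbouring times and from that to LPS, by tests of the difference itself (limma, adjusted p below 0.05). At 1 h, 613 genes exceeded their IL-4 0.5 h level and 502 lay below it, and 757 exceeded and 559 lay below their IL-4 2 h level. Against LPS at 1 h, 5347 were higher and 2680 lower after IL-4. The first 2 comparisons fell to 123 and 264 genes in all when replicates 2 and 3 were averaged.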

How the results depend on the processing

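The 22 alternatives changed how many genes were called. Many named genes were chosen as the largest changes in these same libraries, so what they kept does not show how firm the other calls are. Of the 76 named genes called at 1 h against untreated, 65 kept direction and call in every alternative run, and 11 lost the call in at least 1 (Arg1, Bhlhe40, Cd83, Klf4, Matk, Osgin2, Phldb1, Rtkn2, Serpinb8, Stat6 and Zhx2). Against untreated, replicates 2 and 3 averaged gave 1485 calls (876 higher, 609 lower), of which 1484 were among the 2865 above, or 51.8% of those. The replicate block gave 2080 lower genes. The omission of replicates gave 1357 to 4015 calls, 789 to 1756 higher and 510 to 2259 lower.

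Against IL-4 0.5 h (1115 calls) the replicate block gave 2267, sample weights 1854, averaged replicates 123, only the 6 samples of the comparison 531, all 27 samples 653, and the omission of replicates 97 to 2301. Against IL-4 2 h (1316 calls) these were 2357 with the block, 2142 with sample weights, 264 with averaged replicates, 874 with all 27 samples, and 211 to 2263. Against LPS 1 h (8027 calls) the filter at a mean of 50 gave 4986, from fewer genes tested, and the omission of replicates 6707 to 8393. For the other differences the cause was not tested.

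Of the 5 named genes that were not called, 3 changed sign in at least 1 alternative. The log2 change of Jak3 was −0.0488 with equal totals, −0.00344 with sample weights, −0.0455 without replicate 1, −0.0217 without untreated replicate 3 and −0.0798 without IL-4 1 h replicate 1, and the omission of replicates gave −0.0798 to 0.207. That of Il2rg was 0.153 without replicate 3 and 0.142 without IL-4 1 h replicate 3, from a range of −0.486 to 0.153, and that of Nfkbia 0.0322 and 0.00499, from −0.515 to 0.0322. The share of higher genes among calls against IL-4 2 h moved from 57.5% to 40.8% with equal totals and to 58.5% with median-of-ratios factors.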
